A study of Homo sapiens with 6 samples.

Results

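Transcripts of 42 lysosome and V-ATPase genes were compared between cells transfected with miR-27a-3p mimics and cells transfected with a negative control. The 42 genes were chosen by name, and each was found under its symbol among the 58174 genes of the deposited table. They are 15 genes of the vacuolar ATPase and 27 genes of lysosomal membrane proteins, hydrolases and their regulators. The mimic group held 3 samples, given synthetic RNA duplexes that act in place of the mature microRNA, and the control group held 3 samples transfected with NC, whose sequence the labels do not give. All 6 samples carry the cell line label Huh-7, an established line of human liver cancer cells, and all were lipofected and taken 48 h later. The series concerns cisplatin sensitivity, but the labels name no cisplatin treatment. Expression is given as FPKM, a fragment count divided by gene length and by library size, so levels can be compared between genes per unit of length.

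Hepatocyte markers, which define the lineage of the labelled line, were near 0. Of 11 such genes, 10 were below 1 FPKM in every sample, and APOA2, APOB and TTR were listed at 0 in all 6. ALB did not exceed 0.011 FPKM and AFP did not exceed 0.0237 FPKM in any sample. The summed level of the 11 genes was 0.93 to 1.27 FPKM in mimic samples and 1.14 to 2.11 FPKM in control samples. Markers of macrophages, cells rich in lysosomes, summed to 0.4 to 0.613 FPKM over 8 genes in mimic samples and to 1.46 to 1.66 FPKM in control samples, with CD163 and TYROBP listed at 0 throughout. Fibroblast markers summed to 7.73 to 10.5 FPKM over 6 genes in mimic samples and to 17.7 to 18.3 FPKM in control samples, nearly all of it COL1A1, and endothelial markers to 0.512 to 0.823 FPKM over 4 genes in mimic samples and to 1.42 to 2.91 FPKM in control samples. These levels go against the cell line label, so the label is in doubt and the cells are known here only as labelled Huh-7. The part of these levels in the results below was not tested.

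Lysosomes are acidic organelles in which hydrolases break down proteins, glycans and lipids. The V-ATPase acidifies them: its V1 sector binds and hydrolyses ATP in the cytosol, and its V0 sector carries protons through the membrane. Many lysosomal genes are controlled together by TFEB and the related TFE3, transcription factors that bind E-box sequences in promoters and are held in the cytoplasm when mTORC1 is active at the lysosomal surface.

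The microRNA is shown because its seed decides which transcripts it can pair with. Its mature sequence, from RefSeq (GRCh38.p14, chr19:13836447-13836467, minus strand), is given with the seed, bases 2 to 8, in capitals.
hsa-miR-27a-3p: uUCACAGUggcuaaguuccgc

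All 42 genes averaged at least 1 FPKM over the 6 samples and so entered the test over 14439 genes. CD63 was the most abundant, with a mean of 308.6 FPKM over all samples, followed by PSAP, CTSD and ATP6V1F at 257, 224 and 203 FPKM. TFEB was the least abundant at 5.2 FPKM. Together the 42 genes made up 0.838%, 0.854% and 0.856% of the FPKM outside the mitochondrial genome in mimic samples 1, 2 and 3, and 0.833%, 0.88% and 0.769% in control samples 1, 2 and 3, so the groups overlapped. Mitochondrial genes took 14.6% to 38.9% of all FPKM in mimic samples and 16.9% to 32.8% in control samples, with sample 3 highest in both groups. Sample 3 was also the lowest of its group for 30 of the 42 genes among mimic samples and for 33 among control samples. From 13007 to 13250 genes reached 1 FPKM in mimic samples, and from 15109 to 15494 in control samples. The sequencing depth of the samples is unknown here.

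On the deposited scale the 42 genes rose and fell in nearly equal numbers. In mimic samples 10 genes rose, 11 fell and 21 did not pass the threshold (limma, adjusted p under 0.05 over all genes tested). Of all 14439 genes, 51.6% were called, 12% as higher and 39.6% as lower, and among the members the shares were 23.8% higher and 26.2% lower. Of tested protein-coding genes, the class that holds all members, 46.7% were called, 14% as higher and 32.7% as lower. The share of members called in either direction, 50%, was close to both backgrounds. The groups did not overlap for 12 members that were higher and 11 that were lower, 28.6% and 26.2%, against 16.2% and 44.3% of all genes, or 54.8% in either direction against 60.5%. For tested protein-coding genes 19% were higher and 37.9% lower without overlap. The members' median log2 fold change (mimic over control, on log2 of FPKM + 0.5) was 0.02, against -0.29 for all genes and -0.17 for protein-coding genes.

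Because the median of all genes lay well below 0, counts of calls are also given after median-of-ratios scaling, which brought that median to 0.01. On that scale 15 members were higher and 5 lower, or 35.7% and 11.9%, against 26.9% and 27.4% of all genes. Of tested protein-coding genes 31.8% were higher and 20.4% lower, so the members' share of rises lay near theirs. In either direction 47.6% of members were called against 54.3% of all genes, and the groups did not overlap for 54.8% of members against 63.8% of all genes. All 10 rises were called on both scales. Of the 11 falls, those of NPC1, GUSB, ASAH1, NPC2 and LIPA were called on both, and those of SCARB2, CTSA, CTSC, GLA, GLB1 and HEXA on the deposited scale only. ATP6V0C, ATP6V1A, ATP6V1E1, ATP6V1F and GRN were called higher after this scaling and not as deposited. In bulk RNA a smaller number of cells with a transcript and less of it per cell cannot be told apart.

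**Figure D1:**
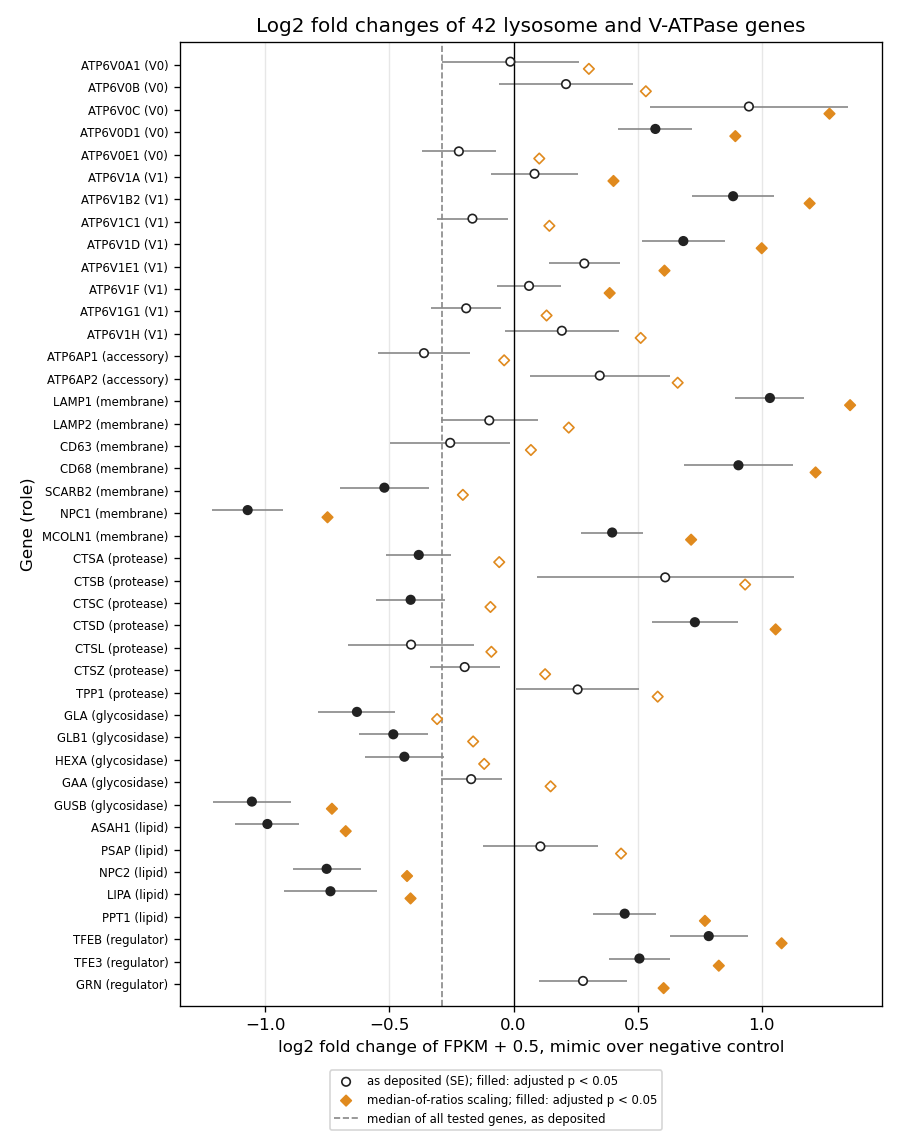
Log2 fold changes of the 42 genes, mimic over negative control, by role, on the deposited scale (black circles with SE) and after median-of-ratios scaling (orange diamonds); filled symbols have an adjusted p under 0.05 and the dashed line is the median of all tested genes at -0.29. LAMP1 has the highest deposited value (1.03) and NPC1 the lowest (-1.07), and no V-ATPase gene shown is called lower on either scale.

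The V-ATPase genes among the members rose or did not pass the test. Of 15, 3 rose and none fell on the deposited scale (20% of them higher, against 12% higher and 39.6% lower of all genes). After median-of-ratios scaling 7 were higher and none lower, 46.7% against 26.9% of all genes. Their median log2 fold change was 0.19 as deposited and 0.51 after scaling, and 14 of the 15 lay above the median of all genes. The groups did not overlap for 5 of them, all higher (33.3%, against 16.2% of all genes). This holds for the members only. Of 7 further subunit isoforms tested, given below, 4 fell and none rose as deposited (57.1% lower, against 39.6% of all genes).

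Among V0 genes, ATP6V0D1 rose. It encodes a subunit on the cytosolic face of V0 that couples it to the central stalk, and lies on chromosome 16 (67438014 to 67481237, hg38, minus strand). Its level was 60.2, 68.8 and 52.0 FPKM in mimic samples 1, 2 and 3, against 39.9, 43.9 and 36.9 FPKM in control samples. Every mimic sample was above every control sample, with a log2 fold change of 0.57 (SE 0.15, limma adjusted p = 0.0124), or 0.89 after scaling (adjusted p = 0.000694). When all FPKM were rescaled to a sum of 1000000 the call was lost (0.53, adjusted p = 0.0784).

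ATP6V0C, the proteolipid that forms the rotor ring, varied most. It was at 88.7, 209.6 and 237 FPKM in mimic samples 1, 2 and 3, against 95, 58.2 and 110.1 FPKM in control samples. Mimic sample 1 lay inside the control range, while mimic samples 2 and 3 lay far above it. The log2 fold change was 0.95 (SE 0.40, adjusted p = 0.0812), 1.27 after scaling (adjusted p = 0.0395) and 1.39 without mimic sample 1 (adjusted p = 0.00549). This gene alone set the summed V-ATPase level apart: the 15 genes summed to 897, 951 and 895 FPKM in mimic samples 1, 2 and 3, against 821, 801 and 757 FPKM in control samples. Without ATP6V0C the sums were 809, 741 and 658 FPKM in mimic samples and 726, 743 and 647 FPKM in control samples, and the groups overlapped. Its 4 named processed pseudogenes were at most at a mean of 0.199 FPKM in either group.

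The other V0 genes gave no call on the deposited scale. ATP6V0A1, the large membrane subunit that forms the proton path with the ring, was at 28.2, 20.4 and 12 FPKM in mimic samples and 19.3, 20.4 and 18.1 FPKM in control samples (-0.01, SE 0.28). ATP6V0B, a second proteolipid of the ring, was at 66.9, 41.8 and 32.7 FPKM in mimic samples and 44.9, 43.0 and 30.4 FPKM in control samples (0.21, SE 0.27). ATP6V0E1, a small membrane subunit, was at 105, 87.1 and 82.8 FPKM in mimic samples and 111, 113 and 95.6 FPKM in control samples (-0.22, SE 0.15, and 0.10 after scaling). After quantile normalization its fall was called (-0.29, limma adjusted p = 0.0377). Mimic sample 1 was the highest of its group for each of these 3 genes, and the groups overlapped.

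Among the 8 V1 genes, ATP6V1B2 and ATP6V1D rose. ATP6V1B2, the B subunit expressed in most tissues, which shares the ATP-binding head with subunit A, was at 15.5, 12.9 and 10.9 FPKM in mimic samples 1, 2 and 3, against 7.55, 7.01 and 5.92 FPKM in control samples. The lowest mimic sample was above the highest control sample, and the log2 fold change was 0.88 (SE 0.16, limma adjusted p = 0.00261), with 1.19 after scaling. ATP6V1D, a part of the central rotor shaft, was at 21.1, 16.7 and 24.7 FPKM in mimic samples, against 13.3, 13.3 and 11.4 FPKM in control samples (0.68, SE 0.17, adjusted p = 0.00936). Without sample 3 of both groups its adjusted p was 0.0655. ATP6V1D overlaps EIF2S1 on the other strand, which averaged 41.9 FPKM in mimic samples and 24.0 FPKM in control samples, and the sources used here do not say whether strand was used in quantification, so reads of the pair may not be separable.

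The A subunit did not move like its partner. ATP6V1A, which binds ATP at the catalytic site, was at 24.9, 24.9 and 17.8 FPKM in mimic samples, against 22.8, 22.7 and 17.8 FPKM in control samples (0.08, SE 0.18, adjusted p = 0.714; 0.40 and adjusted p = 0.0332 after scaling). ATP6V1E1, a subunit of the peripheral stalks, was at 72.6, 69.0 and 62.5 FPKM in mimic samples and 58.9, 60.9 and 48.0 FPKM in control samples. Its groups did not overlap, but the rise was not called as deposited (0.29, SE 0.14, adjusted p = 0.131). It was called after scaling (0.61, adjusted p = 0.00265), when the total excluded mitochondrial genes (0.31, adjusted p = 0.0388) and after GC and length correction (0.73, adjusted p = 0.00128). ATP6V1F, a rotor subunit and the most abundant V-ATPase transcript, differed little between groups that just did not overlap, at 208, 214 and 202 FPKM in mimic samples and 199, 197 and 200.3 FPKM in control samples (0.06, SE 0.13, adjusted p = 0.706; 0.39 and adjusted p = 0.0182 after scaling).

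The remaining V1 genes and the accessory genes were not called on either scale. ATP6V1G1, another stalk subunit, was at 74.1 to 93.3 FPKM in mimic samples and 89.4 to 97.7 FPKM in control samples, and was called higher only under GC and length correction (0.45, adjusted p = 0.0146, and 0.0125 with the block) among the alternatives. ATP6V1C1, which regulates the joining of V1 to V0, was at 8.67 to 10.0 FPKM in mimic samples and 9.27 to 12.2 FPKM in control samples. ATP6V1H, a regulatory subunit, was at 16.6 to 30.6 FPKM in mimic samples and 15.7 to 21.3 FPKM in control samples. ATP6AP1, an assembly and accessory protein, was at 43.1 to 65.5 FPKM in mimic samples and 59.1 to 77.4 FPKM in control samples (-0.36, SE 0.19, adjusted p = 0.138). Its fall was called without mimic sample 1 (-0.50, limma adjusted p = 0.044) and after quantile normalization (-0.41, adjusted p = 0.031). ATP6AP2, the accessory protein also known as the prorenin receptor, was at 10.4 to 22.9 FPKM in mimic samples and 9.38 to 14.2 FPKM in control samples. The groups overlapped for all 5.

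**Figure D2:**
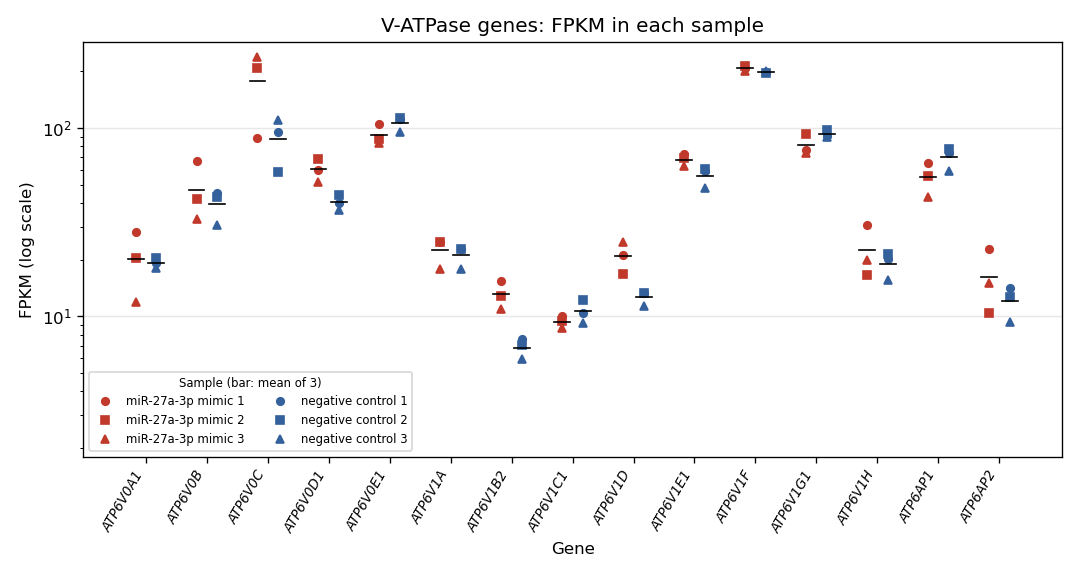
FPKM (log axis) of the 15 V-ATPase genes in each sample, mimic samples in red left of control samples in blue, with symbols for samples 1, 2 and 3 and a bar at the mean of 3. ATP6V1B2, ATP6V1D and ATP6V0D1 show separate groups, and the spread of ATP6V0C runs from 58.2 to 237 FPKM.

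Membrane proteins of the lysosome moved in both directions, with 3 of 7 higher, 2 lower and 2 not called (42.9% and 28.6%, against 12% and 39.6% of all genes). After scaling 3 were higher and 1 lower (42.9% and 14.3%, against 26.9% and 27.4%). LAMP1, a heavily glycosylated protein that lines the lysosomal membrane, had the largest rise of the 42 genes. Its level was 118, 109 and 94.5 FPKM in mimic samples 1, 2 and 3, against 48.8, 56.2 and 50.9 FPKM in control samples. The groups lay far apart, with a log2 fold change of 1.03 (SE 0.14, limma adjusted p = 0.00054) and 1.36 after scaling. LAMP2, its structural relative, was at 30.6, 31.3 and 25.4 FPKM in mimic samples, against 30.6, 40.4 and 24.2 FPKM in control samples (-0.10, SE 0.20, adjusted p = 0.702).

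CD68, a LAMP-family glycoprotein best known from macrophages, was at 10.8, 19.0 and 18.9 FPKM in mimic samples, against 7.65, 9.04 and 7.82 FPKM in control samples (0.91, SE 0.22, limma adjusted p = 0.00938). Mimic sample 1 lay close to the controls, and without sample 3 of both groups the adjusted p was 0.0853. CD68 overlaps an antisense gene that averaged 11.7 FPKM in mimic samples and 19.9 FPKM in control samples, and a further transcript on its own strand. MCOLN1, a calcium channel of the lysosome, was at 26.5, 22.3 and 24.1 FPKM in mimic samples, against 18.4, 18.7 and 17.7 FPKM in control samples (0.40, SE 0.13, adjusted p = 0.0276; 0.72 and adjusted p = 0.0019 after scaling). The groups did not overlap, but the call was lost without mimic sample 1 (adjusted p = 0.0621) and without control sample 1 (0.084), control sample 2 (0.0709) or control sample 3 (0.0766). It was also lost with FPKM rescaled to a sum of 1000000 (adjusted p = 0.183) and without sample 3 of both groups (0.0967). MCOLN1 overlaps PNPLA6 on the same strand, which averaged 77.0 FPKM in mimic samples and 35.2 FPKM in control samples.

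NPC1, which exports cholesterol from the lysosome, had the largest fall. It was at 38.5, 33.6 and 30.5 FPKM in mimic samples 1, 2 and 3, against 76.9, 75.6 and 64.4 FPKM in control samples. Every mimic sample was far below every control sample (-1.07, SE 0.14, limma adjusted p = 0.000531; -0.75 and adjusted p = 0.0011 after scaling). RMC1, which overlaps NPC1 on the other strand, averaged 11.8 FPKM in mimic samples and 21 FPKM in control samples. SCARB2, the receptor that carries glucocerebrosidase to the lysosome, was at 15.6, 18.2 and 11.4 FPKM in mimic samples, against 20.2, 22.9 and 21.3 FPKM in control samples (-0.52, SE 0.18, adjusted p = 0.039). The groups did not overlap, but that call was lost after scaling (-0.20, adjusted p = 0.274) and without mimic sample 3 (-0.34, adjusted p = 0.0881), control sample 1 (adjusted p = 0.0686), control sample 2 (0.111) or control sample 3 (0.0809). CD63, a tetraspanin of late endosomes, was at 360.5, 280.5 and 207 FPKM in mimic samples and 382, 365 and 256 FPKM in control samples, and was not called (-0.25, SE 0.24).

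Among 7 proteases, CTSD rose, CTSA and CTSC fell on the deposited scale and 4 were not called. The 14.3% higher and 28.6% lower lay near the 12% and 39.6% of all genes, and after scaling CTSD alone was called (14.3% higher, against 26.9%). CTSD, the main aspartic protease of the lysosome, was at 305, 249 and 283 FPKM in mimic samples 1, 2 and 3, against 199, 168 and 140.5 FPKM in control samples. The lowest mimic sample was above the highest control sample (0.73, SE 0.17, limma adjusted p = 0.00796; 1.06 after scaling). Without sample 3 of both groups its adjusted p was 0.0534. An unnamed protein-coding gene on the same strand overlaps it and averaged 17.9 FPKM in mimic samples and 21.1 FPKM in control samples.

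CTSA, a carboxypeptidase that also protects β-galactosidase and neuraminidase, was at 92.9, 98.9 and 90.7 FPKM in mimic samples, against 126, 131 and 113 FPKM in control samples (-0.38, SE 0.13, limma adjusted p = 0.0376). CTSC, a dipeptidyl peptidase that activates serine proteases, was at 39.1, 37.7 and 30.4 FPKM in mimic samples, against 46.2, 49.3 and 47.1 FPKM in control samples (-0.41, SE 0.14, adjusted p = 0.0355). Neither pair of groups overlapped as deposited, but after scaling the values were -0.06 (adjusted p = 0.654) for CTSA and -0.09 (adjusted p = 0.482) for CTSC. Both calls were lost without mimic sample 2 (adjusted p = 0.0682 for CTSA and 0.0604 for CTSC), mimic sample 3 (0.0783 and 0.0867), control sample 1 (0.126 and 0.0854) or control sample 2 (0.139 and 0.11), and that of CTSC also without control sample 3 (0.0734). After GC and length correction the value of CTSC turned to 0.16 (adjusted p = 0.295).

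CTSB, a cysteine protease, depended on 1 library. It was at 65.6, 52.6 and 48.0 FPKM in mimic samples 1, 2 and 3, against 56.9, 56.2 and 14.2 FPKM in control samples, so control sample 3 alone was low. The log2 fold change was 0.61 (SE 0.52, limma adjusted p = 0.358) with that sample and -0.04 without it. CTSL, another cysteine protease, was at 79.6, 70.0 and 63.7 FPKM in mimic samples, against 93.7, 137 and 65.4 FPKM in control samples (-0.41, SE 0.25, adjusted p = 0.205), and without control sample 3 its fall was called (-0.68, adjusted p = 0.0306). TPP1, a tripeptidyl peptidase, was at 39.7, 60.8 and 81.3 FPKM in mimic samples and 42.3, 50.2 and 53.8 FPKM in control samples (0.26, SE 0.25), and without mimic sample 1 its rise was called (0.53, adjusted p = 0.0349). CTSZ, a carboxypeptidase, was at 87.9 to 99.1 FPKM in mimic samples and 94.2 to 119 FPKM in control samples (-0.20, SE 0.14, adjusted p = 0.274).

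Glycosidases were lower in mimic samples, with 4 of 5 called on the deposited scale (80%, against 39.6% of all genes) and 1 of 5 after scaling (27.4% of all genes). GUSB, β-glucuronidase, was at 45.4, 48.1 and 41.5 FPKM in mimic samples 1, 2 and 3, against 85.0, 114 and 84.7 FPKM in control samples. Its highest mimic sample was well below its lowest control sample (-1.05, SE 0.16, limma adjusted p = 0.000911; -0.73 and adjusted p = 0.00361 after scaling). GUSB has many partial copies in the genome, of which the most abundant, GUSBP1, averaged 7.8 FPKM in mimic samples and 15.2 FPKM in control samples, so its single value is uncertain.

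The other glycosidases showed smaller differences. GLA, α-galactosidase, was at 63.3, 49.6 and 44.9 FPKM in mimic samples, against 83.9, 80.4 and 78.4 FPKM in control samples (-0.63, SE 0.15, limma adjusted p = 0.00968; -0.31 and adjusted p = 0.0678 after scaling). The groups of GLA stayed apart on both scales. GLB1, β-galactosidase, was at 38.8, 31.2 and 32.6 FPKM in mimic samples, against 48.0, 51.8 and 44.0 FPKM in control samples (-0.48, SE 0.14, adjusted p = 0.0194; -0.16 and adjusted p = 0.276 after scaling). HEXA, the α subunit of β-hexosaminidase, was at 39.4, 30.1 and 31.7 FPKM in mimic samples, against 48.3, 50.1 and 39.2 FPKM in control samples (-0.44, SE 0.16, adjusted p = 0.0474), with mimic sample 1 just above control sample 3. The calls of GLB1 and HEXA were lost without mimic sample 2 (adjusted p = 0.0704 for GLB1 and 0.149 for HEXA), control sample 1 (0.0632 and 0.141) or control sample 2 (0.0778 and 0.151), and that of HEXA also without mimic sample 3 (0.108). GAA, acid α-glucosidase, was at 28.1, 27 and 25.8 FPKM in mimic samples and 29.9, 32.8 and 28.6 FPKM in control samples, without a call (-0.17, SE 0.12, adjusted p = 0.275; 0.15 after scaling).

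Genes of lipid handling fell in 3 of 5 cases and PPT1 rose, on both scales (60% lower, against 39.6% of all genes as deposited and 27.4% after scaling, and 20% higher, against 12% and 26.9%). ASAH1, acid ceramidase, was at 12, 11.5 and 11 FPKM in mimic samples 1, 2 and 3, against 24.8, 20.9 and 24.7 FPKM in control samples. Its mimic samples lay within about 1 FPKM of each other and far below the controls (-0.99, SE 0.13, limma adjusted p = 0.000454; -0.68 and adjusted p = 0.00302 after scaling). NPC2, which hands cholesterol to NPC1, was at 79.0, 85.0 and 68.9 FPKM in mimic samples, against 128, 138 and 126 FPKM in control samples (-0.75, SE 0.14, adjusted p = 0.00233; -0.43 after scaling). LIPA, the acid lipase that frees cholesterol from its esters, was at 46.6, 50.8 and 35.3 FPKM in mimic samples, against 74.6, 86.4 and 60.8 FPKM in control samples (-0.74, SE 0.19, adjusted p = 0.0114; -0.41 and adjusted p = 0.0435 after scaling). After correction for GC content and length the adjusted p was 0.0623 for NPC2 (log2 fold change -0.26) and 0.0625 for LIPA (-0.39). The interval of LIPA spans IFIT1, IFIT2 and IFIT3 on the other strand, of which IFIT1 averaged 132 FPKM in mimic samples and 169 FPKM in control samples.

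PPT1, which removes palmitate from proteins, was at 86.6, 81.0 and 82.5 FPKM in mimic samples, against 60.4, 66.4 and 56.5 FPKM in control samples (0.45, SE 0.13, limma adjusted p = 0.0178; 0.77 and adjusted p = 0.00107 after scaling). Its groups did not overlap, and the call was lost without control sample 1 (adjusted p = 0.0682) or control sample 3 (0.0588). It was also lost with FPKM rescaled to a sum of 1000000 (adjusted p = 0.148) and without sample 3 of both groups (0.0694). PSAP, the precursor of saposins that help lipid hydrolases, was at 342, 256 and 204 FPKM in mimic samples and 247, 298 and 194 FPKM in control samples, with overlapping groups (0.11, SE 0.23, adjusted p = 0.722).

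Both transcription factor genes among the members rose, as 2 of the 3 regulators (66.7%, against 12% of all genes). After scaling all 3 were higher, on a scale where 26.9% of all genes and 31.8% of tested protein-coding genes were higher. TFEB on chromosome 6 (41683978 to 41736259, hg38, minus strand) was at 8.2, 6.19 and 5.85 FPKM in mimic samples 1, 2 and 3, against 3.49, 3.76 and 3.74 FPKM in control samples. Its groups did not overlap (0.79, SE 0.16, limma adjusted p = 0.0037; 1.08 after scaling). TFE3 was at 34.9, 34.1 and 31.8 FPKM in mimic samples, against 24.4, 24.5 and 21.6 FPKM in control samples, again without overlap (0.51, SE 0.12, adjusted p = 0.00944; 0.83 after scaling). Rescaled to a sum of 1000000 FPKM, the call of TFE3 was lost (adjusted p = 0.0925). GRN, which encodes the secreted and lysosomal protein progranulin, was at 202, 178 and 179 FPKM in mimic samples and 184, 159 and 123 FPKM in control samples (0.28, SE 0.18, adjusted p = 0.214; 0.60 and adjusted p = 0.00968 after scaling). These are transcript levels and give no measure of the proteins' place in the cell.

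**Figure D3:**
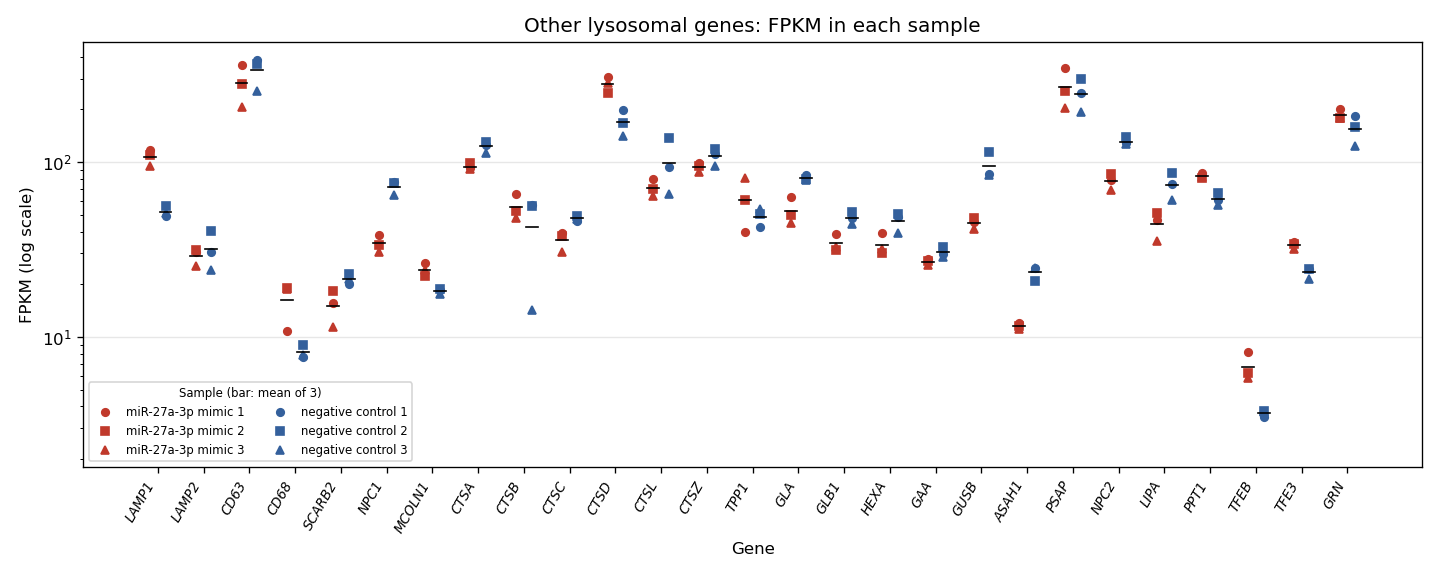
FPKM (log axis) of the 27 lysosomal genes outside the V-ATPase in each sample, mimic samples in red left of control samples in blue, with symbols for samples 1, 2 and 3 and a bar at the mean of 3. LAMP1, PPT1, TFEB and TFE3 are higher and NPC1, GUSB, ASAH1 and NPC2 lower in every mimic sample, and control sample 3 of CTSB stands alone at 14.2 FPKM.

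Promoters were searched for the E-box CACGTG, the core of the element that TFEB binds, and for its longer form TCACGTGA. Both words read the same on both strands, and the longer contains the shorter. The window ran from 250 bases before to 50 bases after the gene start in RefSeq (GRCh38.p14), and 32 of the 42 members were in the table. CACGTG was found in 9 of these 32 (28.1%), against 10.5% of 9415 promoters of tested protein-coding genes and 7.43% of all 27305 promoters. TCACGTGA was found in 6 members (18.8%, against 2.06% and 1.04%), which were LAMP1, ATP6V0D1, MCOLN1, ATP6V1G1, GAA and CTSA. The promoter of LAMP1, the gene with the largest rise, held CACGTG 6 times.

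Of the 9 members with CACGTG, LAMP1, CTSD, ATP6V0D1 and MCOLN1 rose, CTSA fell on the deposited scale only, and ATP6V0B, GAA, ATP6V1G1 and CD63 were not called. That is 44.4% higher and 11.1% lower, against 17.8% and 30.4% of tested protein-coding genes with the word. Of the 23 members searched without it, 5 rose and 8 fell (21.7% and 34.8%, against 13.5% and 32.6% of tested protein-coding genes without it). After scaling 4 of the 9 with the word were higher and 0 lower, and 9 of the 23 without it were higher and 4 lower. The shares of rises with and without the word thus lay closer together than as deposited. On that scale 31.8% of all tested protein-coding genes, not split by the word, were higher and 20.4% lower. As deposited, the members' median log2 fold change was 0.21 with the word and -0.01 without it, and after scaling 0.53 and 0.30. Over the tested protein-coding genes it was -0.13 with the word (987 genes) and -0.17 without it (8428 genes), and after scaling 0.18 and 0.13. A word in a promoter is a description of its sequence and does not show binding. Windows of 30 bases are shown for the 4 genes that rose and for GAA, ATP6V1G1 and CTSA, which hold the word without a rise, with CACGTG in capitals, and the position counted from the gene start, where -1 is the base before it.
LAMP1 at -28 (chr13:113297199-113297228, plus strand): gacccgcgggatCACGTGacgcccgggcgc
LAMP1 at -1 (chr13:113297226-113297255, plus strand): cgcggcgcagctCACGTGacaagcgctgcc
CTSD at -47 (chr11:1763957-1763986, minus strand): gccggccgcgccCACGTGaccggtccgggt
ATP6V0D1 at -59 (chr16:67481199-67481228, minus strand): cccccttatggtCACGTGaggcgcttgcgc
MCOLN1 at -14 (chr19:7522598-7522627, plus strand): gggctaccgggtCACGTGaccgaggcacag
GAA at -31 (chr17:80101538-80101567, plus strand): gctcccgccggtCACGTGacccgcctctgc
ATP6V1G1 at -58 (chr9:114587699-114587728, plus strand): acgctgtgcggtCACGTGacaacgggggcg
CTSA at -25 (chr20:45891298-45891327, plus strand): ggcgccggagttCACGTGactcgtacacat

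Target words of miR-27a-3p were searched in the longest 3' UTR that GENCODE 29 gives for each gene, on the transcribed strand only. The words were ACTGTGAA (8mer), ACTGTGA (7mer-m8, contained in the 8mer) and CTGTGAA (7mer-A1, also contained in the 8mer). At least 1 word was found in 10 of the 42 members (23.8%), against 28.9% of 11465 tested genes with an annotated UTR. The single 8mer, held by 2.38% of the members and 6.55% of those genes, was in ASAH1, which fell. Of 6 genes with a 7mer-m8 as the best match, LIPA and HEXA fell and ATP6V1C1, ATP6V0A1, ATP6V1A and PSAP were not called. Of 3 with a 7mer-A1, NPC2 and CTSC fell and PPT1 rose. NPC1, GUSB and GLA fell with no such word in the UTR searched.

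The members with a word had a median log2 fold change of -0.29, and those without had 0.20. Over the 11465 genes searched the medians were -0.27 with a word and -0.13 without, so genes with a word were lower there too. Of the 10 members with a word 5 fell and 1 rose (50% and 10%), and of the 32 without 6 fell and 9 rose (18.8% and 28.1%). Of tested protein-coding genes 32.7% were lower and 14% higher, and of all tested genes 39.6% and 12%. Neither background was split by the word. The sites of the genes that fell and of PPT1 are shown to place them in the genome (hg38, each within the longest annotated 3' UTR), with the match in capitals. The site of CTSC lies far from the 3' end of the gene, which is at 88293592 on the minus strand of chromosome 11. Which transcript forms these cells make, and so whether they carry the sites, was not tested. The site in ASAH1 is not shown.
NPC2, 7mer-A1 (chr14:74479572-74479595, minus strand): gggaacactgCTGTGAAgaaagcc
LIPA, 7mer-m8 (chr10:89214229-89214252, minus strand): tcaaacctaACTGTGAcagctgtg
HEXA, 7mer-m8 (chr15:72341209-72341232, minus strand): gacagtgagACTGTGAggaaagct
CTSC, 7mer-A1 (chr11:88323840-88323863, minus strand): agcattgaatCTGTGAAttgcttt
PPT1, 7mer-A1 (chr1:40072935-40072958, minus strand): agtccccactCTGTGAAaacttaa

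A further 106 genes of lysosomes and V-ATPase, in 7 lists taken from textbook knowledge, gave 97 that could be tested. Of these 11 rose and 31 fell (11.3% and 32.0%, against 12% and 39.6% of all genes), with a median log2 fold change of -0.18. Their shares lay near the 14% higher and 32.7% lower of tested protein-coding genes as deposited. After scaling 30 were higher and 19 lower (30.9% and 19.6%, against 26.9% and 27.4%), with a median of 0.12. These shares lay near the 31.8% higher and 20.4% lower of tested protein-coding genes after scaling. In the lists that follow, counts as deposited stand against 12% higher and 39.6% lower of all genes, and counts after scaling against 26.9% higher and 27.4% lower. For tested protein-coding genes the shares were 14% and 32.7% as deposited, and 31.8% and 20.4% after scaling. Of 10 further subunit isoforms of the V-ATPase 7 could be tested, of which 4 fell and none rose (57.1% lower), and after scaling 3 were lower and 1 higher (42.9% and 14.3%). The one higher after scaling was ATP6V0E2 (1.49, SE 0.56, limma adjusted p = 0.0611 as deposited; 1.79 and adjusted p = 0.0292 after scaling), named after its values were seen. It was at 4.43, 18.2 and 17.8 FPKM in mimic samples 1, 2 and 3, against 3.16, 6.17 and 2.62 FPKM in control samples. Mimic sample 1 lay inside the control range, and the groups overlapped on both scales. ATP6V1B1, the B subunit of kidney and other specialised epithelia, averaged 0.275 ± 0.184 FPKM in mimic samples and 1.85 ± 0.115 FPKM in control samples (SD, n = 3 each). It passed the filter of 1 FPKM only through the control samples, so its call, 1 of the 4 falls, is not read as a result. ATP6V0A4, at 1.09, 1.31 and 1.23 FPKM in mimic samples 1, 2 and 3 and 0.3, 0.362 and 0.206 FPKM in control samples, was under the filter and was not tested. TCIRG1, the a3 isoform of the V0 membrane subunit, averaged 25.4 ± 4.3 FPKM in mimic samples and 45.9 ± 5.37 FPKM in control samples (-0.85, SE 0.16, limma adjusted p = 0.00293), and ATP6V1C2 also fell (-1.42, SE 0.29). Both were called after scaling (-0.53 and -1.13), and without sample 3 of both groups the call of ATP6V1C2 was lost (adjusted p = 0.0513).

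Genes for assembly or regulation of the V-ATPase fell in 5 of 9 cases and none rose (55.6% lower). After scaling 3 were lower and 2, CCDC115 and ROGDI, higher (33.3% and 22.2%). DMXL2 and DMXL1, which join V1 to V0 again after they have come apart, fell by 1.43 (SE 0.19) and 1.22 (SE 0.16) on the log2 scale, and by 1.11 and 0.92 after scaling. OXR1 fell by 0.81 (SE 0.15), or 0.52 after scaling, and its call was lost after GC and length correction (-0.27, adjusted p = 0.0948). The proteases outside the members fell in 5 of 8 tested cases, with none higher (62.5% lower), and after scaling 4 were lower and 1 higher (50% and 12.5%). These falls include CTSS on both scales, named after its values were seen. It averaged 0.717 FPKM in mimic samples and 2.81 FPKM in control samples. CTSS passed the filter of 1 FPKM only through the control samples, so its call is not read as a result. CTSV fell by 1.76 (SE 0.17), CTSK by 1.33 (SE 0.14) and CTSH by 0.98 (SE 0.16), and after scaling by 1.46, 1.08 and 0.69. Of 25 other hydrolases 7 fell and 2 rose (28% and 8%), and the balance turned after scaling, with 3 lower and 8 higher (12% and 32%). SGSH, a sulfatase of heparan sulfate breakdown, fell by 1.56 (SE 0.18), IDUA, an iduronidase, by 1.27 (SE 0.13) and FUCA1, a fucosidase, by 1.13 (SE 0.15), and after scaling by 1.25, 0.96 and 0.82. NEU1, lysosomal neuraminidase, and SUMF1, which activates sulfatases, rose (0.56 and 0.59, limma adjusted p = 0.0488 and 0.038), and both calls were fragile. That of NEU1 was lost without mimic sample 1 or 2 or any 1 control sample (adjusted p = 0.0679 to 0.141), and that of SUMF1 without any 1 mimic sample, control sample 1 or control sample 3 (adjusted p = 0.0547 to 0.106).

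Of 18 other membrane proteins 4 rose and 4 fell (22.2% each), and after scaling 7 were higher and 3 lower (38.9% and 16.7%). LAPTM4B averaged 26 ± 6.2 FPKM in mimic samples and 10.8 ± 2.62 FPKM in control samples (SD, n = 3 each; log2 fold change 1.22, SE 0.22, limma adjusted p = 0.00216), and its relative LAPTM4A averaged 142 ± 6.53 FPKM in mimic samples and 86.2 ± 12.7 FPKM in control samples (0.73, SE 0.15). CLN3, mutated in a juvenile storage disease, rose (0.77, SE 0.21), while MFSD8 (-1.31, SE 0.17) and the channel gene TPCN1 (-0.70, SE 0.12) fell, all on both scales. Of 11 sorting genes 4 fell and none rose (36.4% lower), and the balance turned after scaling, with 2 lower and 4 higher (18.2% and 36.4%). Among those that fell as deposited were the adaptor genes GGA1 (-1.02, SE 0.17) and GGA2 (-0.44, SE 0.16) and GNPTG (-0.63, SE 0.12), a subunit of the enzyme that makes the mannose-phosphate tag. The call of GGA2 was lost after scaling (-0.12, adjusted p = 0.445) and without mimic sample 2 or 3 or control sample 1 or 3 (adjusted p = 0.0856 to 0.153).

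Nutrient sensing at the lysosome, which sets where TFEB resides, was divided, with 5 of 19 genes higher and 2 lower (26.3% and 10.5%), and 7 higher and 1 lower after scaling (36.8% and 5.26%). MLST8, a subunit of mTORC1, averaged 30.2 ± 2.93 FPKM in mimic samples and 15.6 ± 1.83 FPKM in control samples (SD, n = 3 each; 0.94, SE 0.14, limma adjusted p = 0.000999; 1.25 after scaling). Of the 4 Rag GTPase genes 2 rose, 1 fell and 1 was not called. RRAGC averaged 10.3 ± 1.66 FPKM in mimic samples and 6.15 ± 1.34 FPKM in control samples (0.70, SE 0.19), and RRAGA, named after its values were seen, also rose (0.64, SE 0.21, adjusted p = 0.0319). RRAGB averaged 3.23 ± 0.53 FPKM in mimic samples and 12.4 ± 1.12 FPKM in control samples (-1.79, SE 0.15, adjusted p = 7.56e-05; -1.49 after scaling), and RRAGD was not called (-0.14, SE 0.21, adjusted p = 0.605). LAMTOR1, which anchors the Rag complex to the lysosome, rose (0.67, SE 0.18; adjusted p = 0.0676 without sample 3 of both groups), and FNIP1, a partner of folliculin, fell on the deposited scale (-0.42, SE 0.15, adjusted p = 0.0447), with -0.12 (adjusted p = 0.507) after scaling and 0.15 (adjusted p = 0.292) after GC and length correction. That call was also lost without mimic sample 1 or 3 or any 1 control sample (adjusted p = 0.0708 to 0.126).

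**Figure D4:**
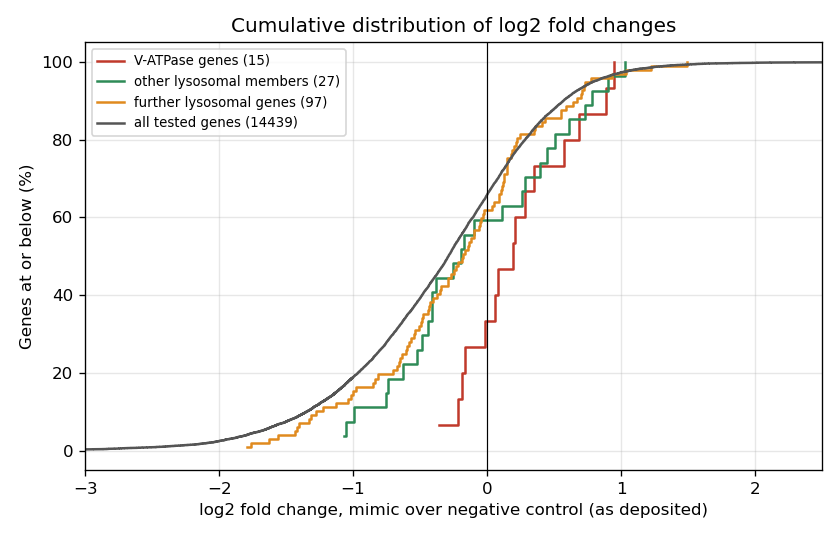
Cumulative share of genes (%) at or below each log2 fold change, mimic over negative control as deposited, for 15 V-ATPase members, 27 other members, 97 further lysosomal genes and all 14439 tested genes. The V-ATPase curve runs from -0.36 to 0.95, to the right of all genes over most of that range, and the curves of the further genes and of all genes lie close together above 0.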

How the data were processed

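RNA-seq of 6 samples was analysed, 3 per group, grouped by the treatment label. Nothing in the labels says that the samples of a group are separate cultures, so each p-value reflects the spread of these samples, which may be technical. The authors deposited FPKM, 1 value per gene and sample. FastQC, HISAT2 and hg38 are named in the submitters' processing notes, and the sources used here do not name the quantifier, strand setting or annotation release. The 6 single-sample tables held the same values as the series table. To look for depth, FPKM was multiplied by GENCODE 29 gene length; only 13.4% to 18.6% of low values were whole multiples of the recurring value within 1%, so depth is unknown, reads were not recovered and no count test was run.

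Genes averaging 1 FPKM or more over the 6 samples were tested with limma-trend (limma 3.58.1, R 4.3.3, robust moderation) on log2(FPKM + 0.5), which understates changes of low genes, with Benjamini-Hochberg adjustment over 14439 genes at 0.05. The step was tested on simulated data. The values were also tested after median-of-ratios scaling and under the other alternatives, 19 in all. The text names every member, and up to 3 called genes with the smallest p in each direction of each further list, of which 1 is not reported here. The members and lists were chosen with earlier results of these data known, so no p is given over a list. Symbols were matched through Ensembl identifiers (57392 of 58174 matched). All columns of per-sample values were used.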

Additional observations from a re-analysis of the deposited data

How the results depend on the processing

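Rises of ATP6V1B2, LAMP1 and TFEB and falls of NPC1, GUSB and ASAH1 were called in the same direction under all 19 alternatives, and 20 of the 21 called members kept their direction in all of them; CTSC did not. The count of members called as higher, 10, was 6 with FPKM rescaled to a sum of 1000000 and 5 without sample 3 of both groups. The count called as lower, 11, was 5 after median-of-ratios scaling, 6 rescaled to a sum of 1000000, 5 after GC and length correction, 6 with that correction and the replicate block, and 6 without sample 3 of both groups. Leaving out 1 library gave 8 to 11 higher and 6 to 12 lower members. The members' median of 0.02 was 0.35 after median-of-ratios scaling and 0.32 after GC and length correction, with or without the replicate block, and -0.11 to 0.07 with 1 library left out. Among further lysosomal genes, 11 higher became 30 after median-of-ratios scaling, 29 after quantile normalization, 7 rescaled to a sum of 1000000 and 25 after GC and length correction with or without the block, and 31 lower became 19 after median-of-ratios scaling and 20 after GC and length correction; with 1 library left out they were 6 to 10 higher and 24 to 30 lower. Over all genes, 1735 higher became 3889, 3592, 1031 and 3850 under median-of-ratios scaling, quantile normalization, the rescaled sum and GC and length correction, and 3991 with that correction and the block; 5718 lower became 8755 with no filter, 2916 at a mean of at least 5 FPKM, 3289 after quantile normalization, 3382 after GC and length correction and 3394 with the block added. Leaving out 1 library gave 1256 to 1822 higher and 4695 to 5732 lower.

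Direction reversed for some genes, mostly with no call as deposited; CTSC and FNIP1 were called falls, and ATP6V1G1 was called higher after GC and length correction (adjusted p = 0.0146, and 0.0125 with the block). After median-of-ratios scaling these were CD63 (0.0701), ATP6V0E1 (0.10), CTSZ (0.13), ATP6V1G1 (0.13), ATP6V1C1 (0.14), GAA (0.15), LAMP2 (0.22) and ATP6V0A1 (0.30). After GC and length correction, with or without the block, they were CTSZ (0.0004), CD63 (0.0626), ATP6V0A1 (0.15), FNIP1 (0.15), CTSC (0.16), ATP6V0E1 (0.28), ATP6V1C1 (0.36), LAMP2 (0.40) and ATP6V1G1 (0.45). After quantile normalization they were ATP6V1F (-0.0081), ATP6V1C1 (0.12) and ATP6V0A1 (0.13). ATP6V0A1 also reversed without mitochondrial genes in the total (0.0074) and without sample 3 of both groups (0.27). With 1 library left out, values on both sides of 0 were seen for ATP6V0A1 (-0.29 to 0.31), ATP6V0B (-0.0711 to 0.44), ATP6V1A (-0.0308 to 0.24), ATP6V1H (-0.05 to 0.38), LAMP2 (-0.27 to 0.0889), CTSB (-0.0413 to 0.94) and PSAP (-0.0858 to 0.29). The causes of these changes were not tested.

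Samples with the same replicate number did not deviate together in every pair (correlations 0.18, -0.05 and 0.22 across genes for numbers 1, 2 and 3), so the numbers are not taken as pairing. With the replicate number as a block, ATP6AP1 was called lower (-0.36, limma adjusted p = 0.0394) and ATP6V0E2 higher (1.49, adjusted p = 0.0332). FNIP1 was not called (adjusted p = 0.0571), and no other named gene changed its call.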

Other observations

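Ratios of 2 members within a sample do not depend on how samples are scaled to each other. These pairs were chosen after their values were seen, so they are given as values with no test. The ratio of LAMP1 to LAMP2 was 3.84, 3.48 and 3.72 in mimic samples 1, 2 and 3, against 1.59, 1.39 and 2.1 in control samples. The ratio of PPT1 to ASAH1 was 7.2, 7.06 and 7.47 in mimic samples, against 2.44, 3.18 and 2.29 in control samples. That of MCOLN1 to NPC1 was 0.688, 0.663 and 0.789 in mimic samples, against 0.239, 0.248 and 0.274 in control samples. Between the V1 head subunits, ATP6V1B2 stood to ATP6V1A at 0.62, 0.518 and 0.613 in mimic samples, against 0.331, 0.309 and 0.332 in control samples. The groups did not overlap for any of these 4 ratios, and each shows that its members changed unequally, not which of them changed.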
